A study of Homo sapiens with 10 samples.

Results

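Vault RNAs are short transcripts of RNA polymerase III that take their name from the vault, a large hollow ribonucleoprotein particle built from the major vault protein. Most vault RNA in a cell lies outside the particle, and VTRNA1-1 is known as a binding partner of the autophagy receptor p62. VTRNA2-1, also called nc886, is not a vault component and is known as a regulator of the kinase PKR. PUS7 is a pseudouridine synthase, an enzyme that turns uridine into pseudouridine in tRNA, mRNA and other RNAs.

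The peaks described here are those that share at least 1 base with 1 of the 4 vault RNA genes of the RefSeq annotation, VTRNA1-1, VTRNA1-2, VTRNA1-3 and VTRNA2-1. Of 2048 peaks in all, 13 met this rule. The genes were chosen by the presence of a listed peak, a measured value, so that having a peak is a description and not a result. They come from iCLIP, in which RNA is crosslinked to a protein by ultraviolet light in living cells and is sequenced after the protein is pulled down. Peak lists of 5 libraries were used. All 5 came from PUS7 knockout cells (PUS7KO+FlagPUS7 in the labels) that carried FLAG-tagged PUS7 and were taken through an anti-FLAG pull-down. The cells of 3 libraries were HEK 293T, a transformed human embryonic kidney line, at passages 20 to 25, and those of 2 libraries were H9, a human embryonic stem cell line, at passages 40 to 45. The series also has 3 293T and 2 H9 knockout libraries without the tag, and no peak list of these was used here. The promoter that drives FLAG-PUS7, and whether the knockouts are single clones, are not stated in the labels. Peak lists hold no expression levels, so neither the identity of the lines nor the knockout was checked. The labels do not say that replicates were grown apart, and the spread between libraries, which the p-values rest on, may be technical.

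The lists differed in length, with 120, 85 and 39 peaks in 293T and 1605 and 199 in H9. Their summed signals were 7536.2, 7215 and 4161.5 in 293T and 13742.1 and 5286.9 in H9. The sequencing depth is unknown, and a signal of one library is therefore not on the scale of another. The first H9 list reached down to a signal of 3, against lowest signals of 9, 13 and 22 in the 293T lists and 6 in the second H9 list. A signal also depends on how much of an RNA a cell holds, which was not measured here. Contact with PUS7 and the amount of RNA cannot be told apart, nor can fewer cells and less RNA per cell.

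VTRNA1-1, VTRNA1-2 and VTRNA1-3 form a cluster on chromosome 5. On GRCh38, VTRNA1-1 lies at 140711276 to 140711373 (98 bases), VTRNA1-2 at 140718926 to 140719013 (88 bases) and VTRNA1-3 at 140726159 to 140726246 (88 bases). The gaps between them are 7552 and 7145 bases. The cluster lies between the protein-coding genes ZMAT2 and PCDHA1, and all 3 genes fall inside the long noncoding RNA gene LOC105378198 (140711276 to 140758080), so that reads from that transcript could not be set apart from theirs. VTRNA2-1 lies 4630677 bases away on the same chromosome, at 136080491 to 136080598 (108 bases), between TGFBI and SMAD5, and overlaps no other gene of the annotation.

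FLAG-PUS7 gave a peak at all 3 genes of the cluster in every 293T library. In H9, VTRNA1-1 and VTRNA1-3 had a peak in both lists and VTRNA1-2 in neither. VTRNA2-1 had no peak in any of the 5 lists. Each 293T list thus covered 3 of 4 vault RNA genes and each H9 list 2 of 4. Of all 3835 small RNA genes of the annotation (up to 400 bases, without pseudogenes), a peak covered 1.8%, 1.33% and 0.678% in the 293T lists and 7.95% and 2.48% in the H9 lists. Because the family was chosen with earlier results of these lists known, no test was made of these counts. Each gene with a peak had exactly 1, on the plus strand. In no list did a further peak come closer to the cluster than 785555 bases.

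**Figure D1:**
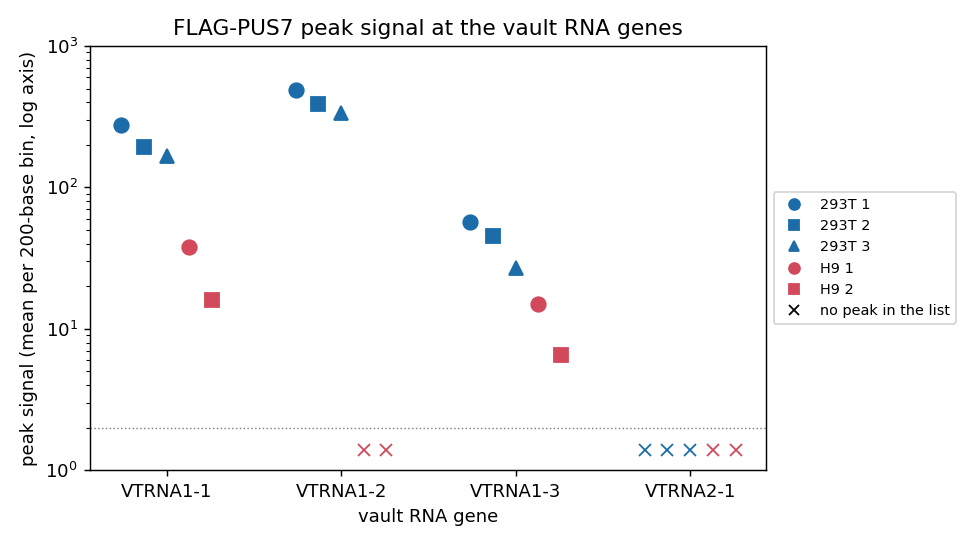
Peak signal (mean per 200-base bin, log axis) at each vault RNA gene in the 3 293T libraries (blue) and the 2 H9 libraries (red), 1 point per library, with crosses below the dotted line for lists without a peak, which have no measured level. VTRNA1-2 is the highest of the genes in each 293T library and has no peak in H9, and VTRNA2-1 has no peak anywhere; signals of different libraries are not scaled for depth.

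VTRNA1-2 was the strongest vault RNA in 293T. Its signal was 492 in the first library, 391 in the second and 334 in the third. It ranked 4 of 120, 6 of 85 and 4 of 39 peaks, which placed it in the upper part of every 293T list. Among peaks that touch no tRNA gene it ranked 2, 3 and 2. In H9 neither list had a peak at it, and the nearest peak was 6988 bases away, at VTRNA1-3. Of 38 loci with a peak in all 3 293T lists, 1 had no peak in either H9 list (2.63%), and that locus was VTRNA1-2. A peak in both H9 lists was found at 32 of the 38, and the rest had a peak in 1 H9 list. RNY3 and RNY4, other short RNA polymerase III transcripts with a peak in each 293T list, had none in the second H9 list.

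How low VTRNA1-2 was in H9 is not known, because a list gives no value where there is no peak. Its signal in 293T was 1.94 ± 0.122 (SD, n = 3) times that of VTRNA1-1. At the same ratio it would have had a signal of 73.6 in the first H9 list and 31 in the second, beside lowest listed signals of 3 and 6. In the first H9 list 24 of 1605 peaks were at or above that value, and in the second 30 of 199. Whether the 293T ratio holds in H9 was not tested. The value of 31 rests on a VTRNA1-1 signal of 16, with a 95% counting interval of 9.1 to 26. Each peak also carries a second count, described below. In the first H9 list the lowest signal was 3 among peaks with a second count of 0, 13 among the 25 peaks with a second count of 6 or more and 53 among the 9 with 20 or more. In the second H9 list it was 6, 6 (77 peaks) and 9 (21 peaks). The second count at VTRNA1-2 in H9 is not in the lists, so its part in the missing peak was not tested.

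VTRNA1-1, the most studied of the vault RNAs, had a peak in all 5 lists. The 3 293T libraries gave it signals of 274, 194 and 167. The H9 libraries gave 38 (95% counting interval 26.9 to 52.2) and 16 (9.1 to 26). It ranked 8, 9 and 9 in 293T, and 48 of 1605 and 66 of 199 in H9. The ranks as a percentage of list length were 6.67, 10.6 and 23.1 in 293T and 2.99 and 33.2 in H9, so that by relative rank the lines overlapped.

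VTRNA1-3 was the weakest of the cluster in 293T, and was listed in H9 where VTRNA1-2 was not. Signals of 57, 45 and 27 were listed for it in the 293T libraries, and of 15 and 6.5 in the H9 libraries. It ranked 24 of 120, 30.5 of 85 and 32.5 of 39 in 293T, and 136.5 of 1605 and 167 of 199 in H9. In the third 293T list and the second H9 list it was thus among the lowest peaks, at 83.3% and 83.9% of the list length. The highest of the authors' p-values among the 13 vault RNA peaks was 0.000533, at VTRNA1-3 in the second H9 list.

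The peaks did not cover the genes alike, because they follow fixed bins. The peak at VTRNA1-1 held the whole gene in all 5 lists. The peak at VTRNA1-2 held 75 of its 88 bases, or 85.2%. A bin border runs through VTRNA1-3, and its 293T peaks held only the first 42 bases of the gene on the plus strand, or 47.7%. Both H9 peaks at VTRNA1-3 spanned 400 bases and held the whole gene. Their signals are means over 2 bins, with sums of 30 (95% counting interval 20.2 to 42.8) and 13 (6.9 to 22.2).

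**Figure D2:**
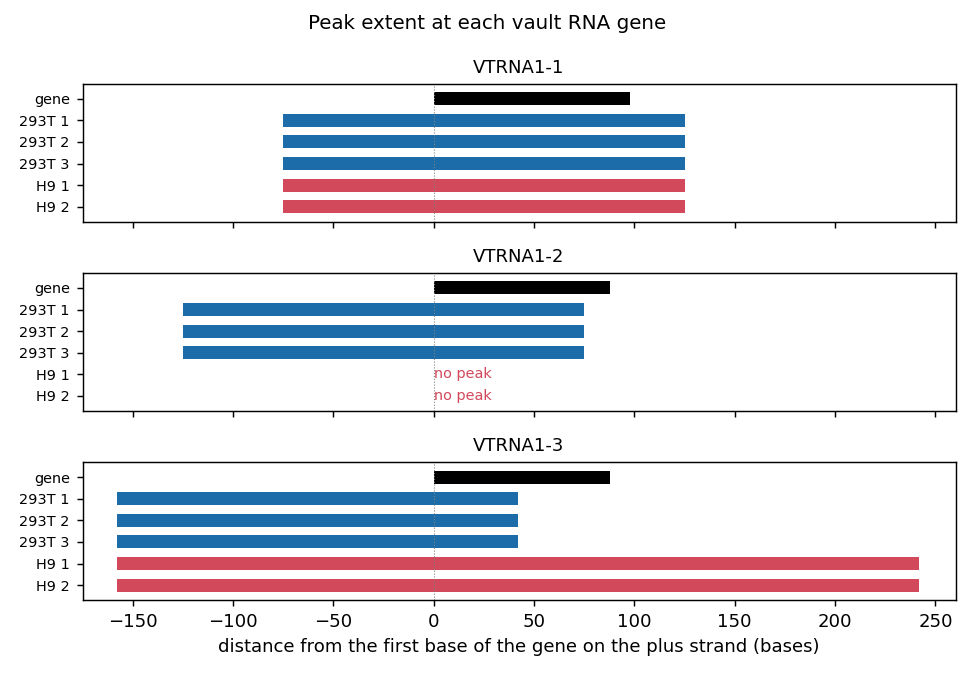
Extent of each listed peak (blue 293T, red H9) relative to the gene (black), in bases from the first base of the gene on the plus strand, with 1 row per library. The VTRNA1-3 peak ends inside the gene in the 3 293T libraries and runs past it in both H9 libraries, while the VTRNA1-1 peak is the same bin in all 5.

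To compare genes within a library, the summed signal was divided by the gene bases inside the peak. On this scale VTRNA1-2 had 6.56, 5.21 and 4.45 per base in 293T, and VTRNA1-1 had 2.8, 1.98 and 1.7. VTRNA1-3 had 1.36, 1.07 and 0.643. The order VTRNA1-2, VTRNA1-1, VTRNA1-3 was the same in all 3 libraries. The ratio of VTRNA1-2 to VTRNA1-1 was 2.53 ± 0.156 (SD, n = 3). In H9, VTRNA1-1 had 0.388 and 0.163 per base and VTRNA1-3 had 0.341 and 0.148, so that these neighbours in the order lay close to each other.

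A ratio of 2 genes within a library takes out a common factor of depth, though not the choice of bins that were listed. By this ratio the lines did not overlap. The ratio of VTRNA1-1 to VTRNA1-3 per base was 2.06, 1.85 and 2.65 in 293T. In H9 it was 1.14 and 1.11, below every 293T library (exact two-sided permutation p = 0.1, the smallest this design allows). Without the scaling to gene bases, VTRNA1-1 made up 82.8%, 81.2% and 86.1% of the summed signal of the pair in 293T. In H9 it made up 55.9% (Clopper-Pearson 95% interval 43.3 to 67.9) and 55.2% (35.7 to 73.6), where the intervals cover counting error within the library only. These values set 1 bin of VTRNA1-3 in 293T beside 2 bins in H9. With the mean per bin in place of the sum, VTRNA1-1 made up 71.7% and 71.1% of the pair in H9. The bin with the rest of VTRNA1-3 has no listed value in 293T, so the 293T ratio leaves out the reads of that bin.

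The genes were also taken as parts of the vault RNA signal of a library, with the signal as deposited (mean per bin). In 293T, VTRNA1-2 made up 61.7% ± 1.78 (SD, n = 3), VTRNA1-1 31.9% ± 1.28 and VTRNA1-3 6.39% ± 1.12. Beside its size the part of VTRNA1-3 varied most, from 5.11% in the third library to 7.14% in the second. In H9, with 2 genes left, VTRNA1-1 made up 71.4% ± 0.424 (SD, n = 2) and VTRNA1-3 28.6% ± 0.424. With signals summed over bins the H9 values were 55.5% ± 0.495 and 44.5% ± 0.495, and those of 293T did not change, since every 293T peak there is 1 bin. Together the vault RNA peaks carried 10.9%, 8.73% and 12.7% of the summed signal of the 293T lists and 0.386% and 0.426% of the H9 lists. Among peaks that touch no tRNA gene they carried 20.3%, 19.3% and 28.2% in 293T and 0.523% and 0.893% in H9.

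The share of the list signal was compared between the lines gene by gene. VTRNA1-1 held 3.64%, 2.69% and 4.01% of the 293T lists and 0.277% and 0.303% of the H9 lists. The lowest 293T share was far above the higher H9 share. The mean was 11.9-fold higher in 293T (3.45% ± 0.682, SD, n = 3, against 0.29% ± 0.0185, n = 2). VTRNA1-3 held 0.756%, 0.624% and 0.649% of the 293T lists, and its H9 shares were 0.109% and 0.123%. Its mean was 5.83-fold higher in 293T (0.676% ± 0.0705, SD, n = 3, against 0.116% ± 0.00975, n = 2), again without overlap. Both genes were at the smallest p the design can give (exact two-sided permutation p = 0.1, adjusted p = 0.178 over 32 loci), which is not under 0.05, and 0 of the 32 loci had an unadjusted p under 0.05. Separation of the lines was common among these loci. Of 32 loci with a peak in all 5 lists, 22 (68.8%) had a higher share in every 293T library than in both H9 libraries, and 1 (3.12%) a lower one. The median locus was 3.11-fold higher in 293T, a shift shared by most loci. By size of the fold VTRNA1-1 ranked 3 of 32 and VTRNA1-3 ranked 7, at 3.82 and 1.87 times the median fold.

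The size of both folds depended on what the signal was divided by. Relative to the summed signal of the 32 shared loci, VTRNA1-1 was 3.92-fold and VTRNA1-3 1.95-fold higher in 293T, still without overlap of the lines. With signals summed over the bins of a peak in place of their mean, a choice made after the lists were seen, VTRNA1-3 was 3.04-fold higher beside a median of 3.1-fold, and ranked 17 of 32. VTRNA1-1 was then 12.4-fold higher. On that scale VTRNA1-3 lay at 0.983 times the median fold and VTRNA1-1 at 4.01 times.

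**Figure D3:**
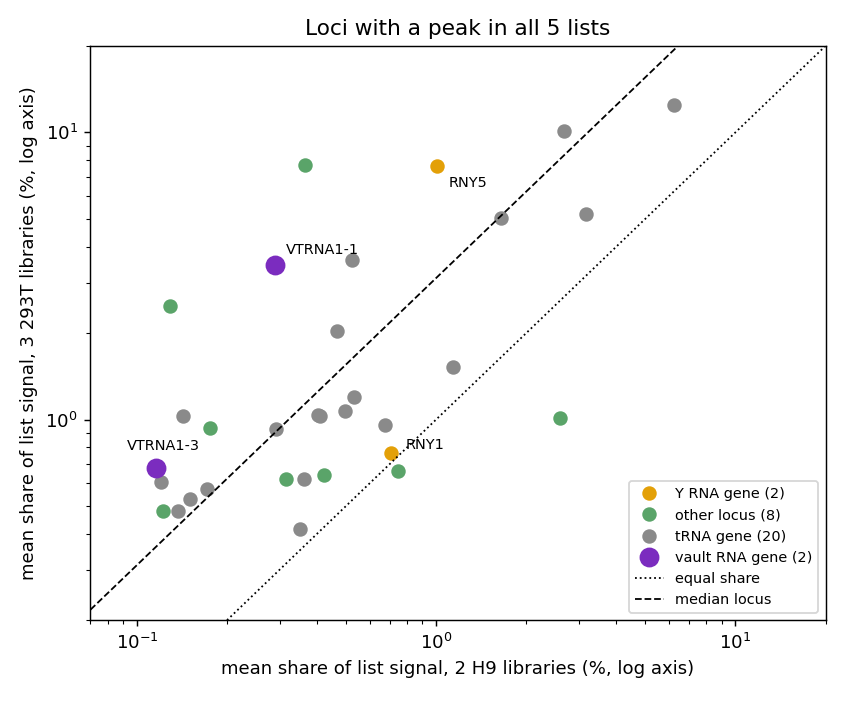
Mean share of the list signal in the 3 293T libraries against that in the 2 H9 libraries (%, both axes log) for the 32 loci with a peak in all 5 lists, with vault RNA genes in purple, Y RNA genes in yellow, tRNA genes in grey and other loci in green. Most loci lie above the dotted line of equal share, VTRNA1-1 (3.45% against 0.29%) lies well above the dashed line of the median 3.11-fold difference, and VTRNA1-2, without a peak in H9, cannot be shown.

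Y RNAs, like vault RNAs, are short RNA polymerase III transcripts, and they belong to the Ro ribonucleoprotein. RNY5 and RNY1 had a peak in all 5 lists. By mean share of the list signal RNY5 was 7.6-fold and RNY1 1.09-fold higher in 293T. RNY3 and RNY4 had a peak in every list except the second H9 list, and were not taken as reference. RNY3 held 0.484%, 0.617% and 0.817% of the 293T lists and 0.0437% of the first H9 list. RNY4 held 0.544%, 0.416% and 0.985% of the 293T lists and 0.08% of the first H9 list. Set against RNY5 in the same library, which needs no scaling for depth, VTRNA1-1 had a signal ratio of 0.312, 0.435 and 0.784 in 293T and 0.336 and 0.254 in H9. These ranges overlapped (exact two-sided permutation p = 0.3). For VTRNA1-3, with the mean per bin, the 293T ratios were 0.0648, 0.101 and 0.127. They overlapped the H9 ratios of 0.133 and 0.103 (exact two-sided permutation p = 0.4). The H9 peaks at VTRNA1-3 span 2 bins, with summed signals of 30 and 13 beside RNY5 signals of 113 and 63. With these sums both H9 ratios would lie above every 293T ratio, while the 293T peaks hold 1 bin. Set against RNY1 the lines did not overlap. The ratio for VTRNA1-1 was 5.03 ± 2.51 (SD, n = 3) in 293T against 0.413 ± 0.0622 (n = 2) in H9, and for VTRNA1-3 it was 1.00 ± 0.542 against 0.166 ± 0.0283 (exact two-sided permutation p = 0.1 for both, the smallest possible). Whether the lines overlapped thus depended on which of RNY5 and RNY1 was taken as reference, and for VTRNA1-3 also on the bins counted. RNY1 and RNY5 also differed in their second counts. Those of RNY1 were 2.16, 14 and 2 in 293T, at signals of 35, 65 and 39. Its H9 peaks, at signals of 103 and 35, had second counts of 7.49 and 62. The values of 2.16 and 7.49 are not whole counts, since they are averaged over bins on the log scale. RNY5 had second counts of 3, 2 and 1 in 293T and 0 in both H9 libraries. How far the second count of RNY1 bears on its ratios was not tested. VTRNA1-2 had 0.56, 0.877 and 1.57 times the signal of RNY5 in 293T and no peak in H9, where RNY5 had 113 and 63. A peak was thus listed in H9 at RNY5 and not at VTRNA1-2.

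Of 10 other short RNA polymerase III transcripts, 5, 4 and 5 had a peak in the 293T lists and 9 and 6 in the H9 lists. RN7SK, which holds back the elongation factor P-TEFb, had a peak in both H9 lists, at 64 and 28, and in no 293T list. Its second count was 66 beside the signal of 28 in the second H9 list. RN7SL1 and RN7SL2, the RNA of the signal recognition particle, likewise had peaks in both H9 lists only, from 8.5 to 14. The lowest listed signals of the 293T lists were 9, 13 and 22, but signals of different libraries are not on one scale. Whether such peaks fell below the lower end of the 293T lists was not tested. Of 7 genes for proteins of the vault particle (MVP, TEP1, PARP4) or of vault RNA binding, modification and processing (SSB, NSUN2, DUSP11, SRSF2), 0 had a peak in 4 of the lists. SRSF2 had 2 peaks in the first H9 list, the higher at a signal of 4. The vault RNA pseudogenes VTRNA2-2P and VTRNA3-1P had no peak in any list.

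The loci whose log2 shares ran most alike to VTRNA1-1 over the 5 libraries were the glycine tRNA genes TRG-CCC2-2 and TRG-CCC2-1 (Pearson r = 0.999 for both, n = 5 libraries) and VTRNA1-3 (r = 0.995). For VTRNA1-3 they were the leucine tRNA gene TRL-TAG3-1 (r = 0.995), VTRNA1-1 and TRG-CCC2-2 (r = 0.991). These values rest mostly on the gap between the lines that 22 of the loci share, and they are given as a description.

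Each peak carries a second count, and no source used here says what it counts. In 293T it was small beside the signal at every vault RNA, while the median second count over all peaks was 0 in each 293T list. At VTRNA1-1 it was 0, 1 and 2 in the 3 libraries. At VTRNA1-2 it was 3, 4 and 5, above that median, and at VTRNA1-3 it was 1, 0 and 0. The vault RNA signals of 293T were thus at least 27 times the second count plus 1. Over all peaks the median of this ratio was 15, 22 and 31 in the 293T lists. VTRNA1-3 in the third 293T list, at 27, was below the median of its list. In the first H9 list it was 3 beside a signal of 38 at VTRNA1-1, and 0 at VTRNA1-3. In the second H9 list VTRNA1-1 had a second count of 13 beside a signal of 16. VTRNA1-3 had a second count of 5 summed over its 2 bins, beside a summed signal of 13. High second counts were general in the second H9 list. A second count of 0 was found at 37.2% of its peaks, against 69.4% to 79.7% in the other lists, and at 20.6% of its peaks the signal was below the second count. With the second count taken off, VTRNA1-1 moved from rank 66 to 131 of 199 in the second H9 list, and stayed at 48 in the first and at 8, 9 and 9 in 293T. VTRNA1-3 moved the other way in the second H9 list, from rank 167 to 118, so that the order of the 2 genes turned there.

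**Figure D4:**
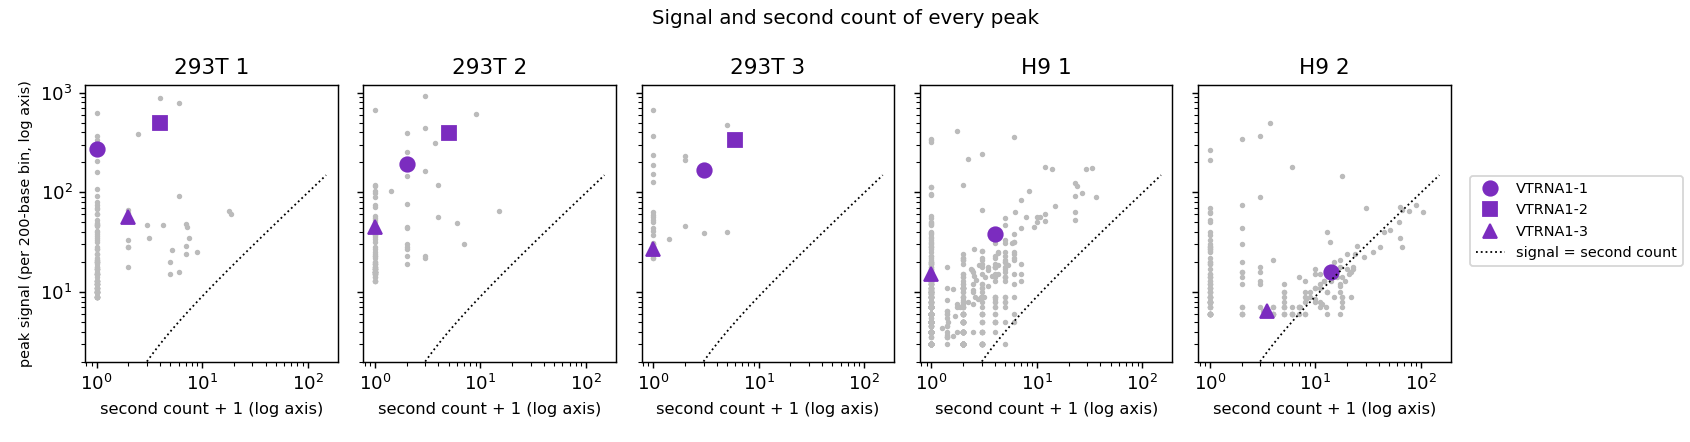
Signal of every peak (per 200-base bin) against its second count plus 1, both log axes, with 1 panel per library, grey points for all peaks and purple symbols for the vault RNA genes. In 293T the vault RNA peaks lie far above the dotted line of equal values, whereas in the second H9 list VTRNA1-1, at a signal of 16 and a second count of 13, lies close to it.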

How the data were processed

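The iCLIP libraries were made and sequenced by the authors for 50 cycles on a MiSeq, per the labels' protocols. Bowtie, SAMtools, bedtools and the build hg38 appear in the submitters' processing notes without roles or versions, and no source used here names the program that called the peaks. Each FLAG-PUS7 library has its own peak list of 8 columns without a header. The signal of a peak, as the authors deposited it, is a mean per 200-base bin. Multiplied by the number of bins it was whole (within 0.01) in every one of the 2048 peaks, and no scaling for depth was found in it. The p-value of each peak is the authors' deposited one, and its test is not stated. The eighth column, as deposited, behaves as the natural log of a second count plus 1, averaged over bins. In peaks of 1 bin the antilog was whole (within 0.001) in all values above the floor. If 1 was not added before the log, every second count above 0 is higher by 1.

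From these lists, peaks sharing at least 1 base with a vault RNA gene of the RefSeq table (GRCh38.p14) were taken, with ranks from the highest signal and ties at their mean rank. Peaks of all lists that shared a base on one strand were merged into loci, and the highest peak of a list stood for the locus. Shares of the summed signal of a list were compared between 3 293T and 2 H9 libraries. The test was two-sided and an exact permutation over 10 assignments, whose smallest p is 0.1, with Benjamini-Hochberg adjustment over the 32 loci present in all 5 lists. Counting intervals are exact Poisson or Clopper-Pearson intervals at 95%, and they treat the signals as counts of independent reads. The permutation test was tried on simulated data. The conversion of the eighth column was tried on made-up counts built with the same formula, which cannot show that the formula is the authors'. Alternatives were other denominators, overlaps and p-value limits, the second count taken off, and leaving out each library. Named genes were the 4 vault RNA genes, the vault RNA pseudogenes, 7 proteins of the vault or of vault RNA handling, 10 other short RNAs made by RNA polymerase III, and the 3 loci most alike in pattern to a member. The members and lists were chosen with earlier results of these data known. Sequences and motifs of the vault RNAs were not analysed here. The deposited tRNA tables hold no vault RNA row and were not used. Scripts ran on Python 3.11.15 with NumPy 2.4.6, pandas 2.3.3, SciPy 1.17.1 and Matplotlib 3.10.9.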

Additional observations from a re-analysis of the deposited data

How the results depend on the processing

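With the whole gene required inside the peak, each 293T list kept 1 vault RNA gene in place of 3, because bin borders cut VTRNA1-2 and VTRNA1-3. With 50% of the gene required it kept 2. The H9 counts stayed at 2 under every overlap, and no count changed with the authors' p-value limited to under 0.001. The log2 ratio of the mean shares, 293T over H9, was 3.57 for VTRNA1-1 and 2.54 for VTRNA1-3. It ran from 3.45 to 3.72 and from 2.45 to 2.63 when 1 library at a time was left out. The mean rank as a percentage of list length, where a lower rank is a stronger peak, was 13.4 in 293T and 18.1 in H9 for VTRNA1-1, and 46.4 and 46.2 for VTRNA1-3. Turned so that a positive value means stronger in 293T (H9 over 293T), the log2 ratio of ranks was 0.43 and -0.01. The sign of the latter is turned, but its size is close to 0, and the lines overlapped for both genes (exact permutation p = 0.7 and 1). Under the other denominators taken from sums of list signal, the stricter p-value, the second count taken off and the sum over bins, both genes kept their direction. The lines did not overlap under any of these settings. The fold of VTRNA1-1 ran from 3.92 (over the 32 shared loci) to 19.7 (second count taken off). That of VTRNA1-3 ran from 1.95 (over the shared loci) to 6.95 (over peaks that touch no tRNA gene). Against RNY5 alone, with the mean per bin, the lines overlapped for both genes. With the sum over bins those of VTRNA1-3 would not overlap, as given above. For VTRNA1-3 the mean ratio to RNY5 was lower in 293T already with the mean per bin, at 0.0976 against 0.118 in H9. Counting a list without a peak as 0 changes nothing for these genes. 293T and H9 libraries share only replicate numbers. With the replicate number as a block the ratio was 3.43 and 2.57. The deviations of same-numbered libraries from their line's mean correlated at 0.29 and 0.3 over 32 loci, for libraries 1 and 2. The deviations of 2 H9 libraries mirror each other, so the crossed pairs gave -0.29 and -0.3 by construction. The 2 values are therefore not independent results. The planned limit to peaks on the strand of the gene was not run, since the gene table used here gives no strand. A test of 3 against 2 libraries cannot pass 0.05 in any setting.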
